A study of Danio rerio with 7 samples.

Results

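The genes described here are egln3 (ENSDARG00000032553), hif1ab (ENSDARG00000034293) and vegfaa (ENSDARG00000103542), 3 members of the hypoxia-inducible factor (HIF) pathway among the 25049 Ensembl genes of the deposited count table. They were chosen by their gene identifiers with their measured levels in hypoxia and normoxia already known, so the comparison of both oxygen levels is given for them as a description, without a test. The data come from poly(A) RNA-seq of wild-type zebrafish whole bodies. From 81 to 96 hpf (hours after fertilization) larvae were kept under air with 6% O2 for the hypoxia group and with 20.9% O2, the atmospheric level, for the normoxia group. Each library was made from a pool of 30 larvae, with 4 normoxia and 3 hypoxia replicates, all of one genotype. No drug is named for these libraries in the sources used here. The hypoxia chamber also held a set CO2 level, and whether the normoxia larvae had the same is not given in the sources used here. As whole bodies were pooled, a change in RNA per cell and a change in the number of cells that make a transcript cannot be told apart.

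HIF is a transcription factor made of an alpha and a beta subunit. When oxygen is present, prolyl hydroxylases of the EGLN (PHD) family modify the alpha subunit, the von Hippel-Lindau (VHL) ubiquitin ligase recognizes the modified protein, and it is degraded. When oxygen is low the alpha subunit persists, pairs with the beta subunit and switches on target genes. egln3 encodes one of the hydroxylases, which in mammals is itself a HIF target. hif1ab encodes an alpha subunit, HIF-1 alpha, whose abundance is mainly set at the protein level. vegfaa encodes a vascular endothelial growth factor A, the ligand that guides the growth of blood vessels and a classical HIF target.

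egln3 was also one of the transcripts for which the study designed qRT-PCR primers. The pair is shown because with it the study could measure egln3 apart from sequencing. Where the primers lie in the transcript was not determined here. Both are written from 5′ to 3′, entirely in lower case because no part of them is singled out. The forward primer has 20 bases, of which 11 (55.0%) are G or C, and the reverse primer has 22, of which 10 (45.5%) are G or C.
egln3 forward primer: tggcagggcaaagtagtgga
egln3 reverse primer: aacaagccaccattgcctttga

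The normoxia libraries held 70275114 to 78235938 counts and the hypoxia libraries 67083058 to 69920400, and TMM scaling factors were 1.02 to 1.04 and 0.951 to 0.977. Levels are given in CPM, the counts of a gene divided by the TMM-scaled library size in units of 1000000 counts. A floor of 3 counts per library, divided by the library size without TMM scaling, lies at 0.0383 to 0.0447 CPM. This limit covers counting error only. After a filter on low counts 23716 genes were tested with edgeR's quasi-likelihood test, and all 3 members were among them. Genes with a Benjamini-Hochberg adjusted p under 0.05 and an absolute log2 fold change over 0.6 were called differentially expressed genes (DEGs). By this rule 3.07% of the tested genes were higher and 7.45% were lower in hypoxia. By the adjusted p alone 24.6% were higher and 25.1% lower. In 26.3% of the tested genes every hypoxia library lay above every normoxia library, and in 26.5% every hypoxia library lay below. Markers of muscle, heart, liver, pancreas, nervous system, lens, skin and cartilage were all detected, none of them at 0 in any library. Of these 11 marker genes 2 were higher and 4 lower in hypoxia at an adjusted p under 0.05 (edgeR). Higher were ACTA1 (ENSDARG00000055618) of muscle (log2 fold change 0.49, SE 0.05) and elavl3 of neurons (0.36, SE 0.05), where SE is the standard error of the fitted value. Lower were prss1 of the exocrine pancreas (-1.59, SE 0.33), fabp10a of the liver (-0.80, SE 0.13), krt4 of the skin (-0.24, SE 0.06) and COL2A1 (ENSDARG00000011407) of cartilage (-0.22, SE 0.05). The other ACTA1 copy (ENSDARG00000036371) had 0.09 and did not pass (edgeR adjusted p = 0.093). Nor did the other COL2A1 copy (ENSDARG00000069093), at -0.01 (edgeR adjusted p = 0.81). That copy was the more abundant, with a normoxia mean of 2856 CPM against 564 CPM. The summed level of the 11 marker genes was 19263 to 20721 CPM in normoxia and 17709 to 19615 CPM in hypoxia. Most of this sum was krt4, with means of 13264 CPM in normoxia and 11214 CPM in hypoxia, so it says little about the other tissues. The part that tissue makeup had in the results below was not tested.

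egln3 had 232, 202, 228 and 231 counts in normoxia replicates 1 to 4 and 3374, 3159 and 3268 counts in hypoxia replicates 1 to 3. Normalized to TMM-scaled library size, this was 3.19, 2.61, 3.05 and 2.88 CPM in normoxia and 50.1, 49.5 and 48.7 CPM in hypoxia. All hypoxia libraries were high and close together, and the lowest of them was 15.2 times the highest normoxia library. The 4 normoxia libraries averaged 2.93 ± 0.251 CPM (SD) and the 3 hypoxia libraries 49.4 ± 0.699 CPM (SD). On the log2 scale the fitted difference was 4.08 (SE 0.07), or 16.9-fold. Among all 23716 tested genes egln3 held place 2 by log2 fold change. By RefSeq a long non-coding RNA gene overlaps egln3, and another overlaps vegfaa, so that some of their counts may be uncertain.

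hif1ab was abundant and nearly level. It had 14388, 15882, 14494 and 15576 counts in normoxia and 13096, 12898 and 13884 in hypoxia. Normalized values were 198.0, 205.2, 193.9 and 194.0 CPM in normoxia and 194.3, 202.1 and 206.8 CPM in hypoxia. The groups overlapped, with hypoxia replicate 1 among the lower normoxia libraries and hypoxia replicate 3 above all of them. Normoxia averaged 197.8 ± 5.30 CPM (SD, n = 4) against 201.1 ± 6.31 CPM (SD, n = 3) for hypoxia. The fitted log2 fold change was 0.024 (SE 0.042), and its sign depended on the scaling. It was -0.072 when libraries were scaled by their size alone, which put the median over all tested genes at -0.10, and -0.062 after cyclic loess normalization. In absolute size, 5.28% of the tested genes had a smaller log2 fold change than hif1ab.

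vegfaa was modestly higher in each hypoxia library. Counts were 735, 772, 831 and 890 in normoxia and 928, 974 and 979 in hypoxia. Normalized values were 10.1, 9.97, 11.1 and 11.1 CPM in normoxia and 13.8, 15.3 and 14.6 CPM in hypoxia. The groups did not overlap, and the lowest hypoxia library was 1.24 times the highest normoxia library. Normoxia averaged 10.6 ± 0.614 CPM (SD, n = 4) against 14.5 ± 0.749 CPM (SD, n = 3) for hypoxia. The fitted log2 fold change was 0.46 (SE 0.07), or 1.37-fold, which is under the fold-change threshold of 0.6 used for DEGs. Of all tested genes, 8.24% had a higher log2 fold change than vegfaa.

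**Figure D1:**
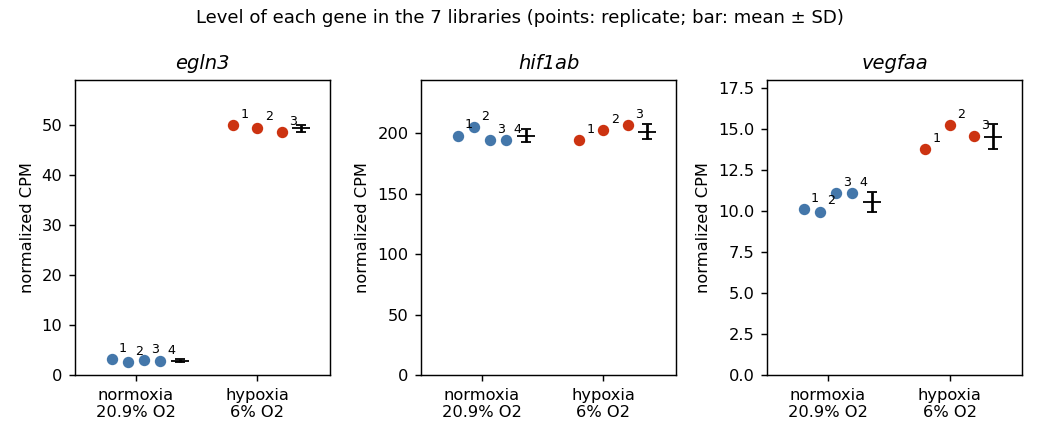
Normalized CPM of egln3, hif1ab and vegfaa (y axes from 0) in 4 normoxia and 3 hypoxia libraries, with points for replicates numbered as in the labels and bars for the mean ± SD. The hypoxia points of egln3 sit at 48.7 to 50.1 CPM against 2.61 to 3.19 CPM in normoxia, those of hif1ab overlap with normoxia, and those of vegfaa lie just above it.

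The log2 fold changes of the 3 genes were of very different size in the same libraries. That of egln3 exceeded that of vegfaa by 3.62 and that of hif1ab by 4.05, and that of vegfaa exceeded that of hif1ab by 0.44. Every hypoxia library lay above every normoxia library in 2 of the 3 genes, a pattern found in 26.3% of all tested genes. In the 7 fits that each omitted 1 library, log2 fold changes were 4.02 to 4.12 for egln3, 0.42 to 0.50 for vegfaa and 5.4e-05 to 0.05 for hif1ab. Levels of the 3 genes are not compared with each other, because CPM is not corrected for transcript length.

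**Figure D2:**
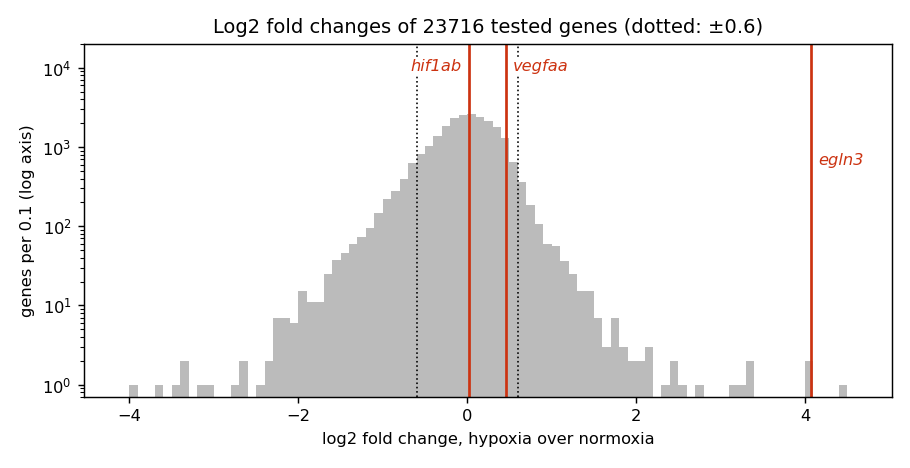
Distribution of the log2 fold change (hypoxia over normoxia, x axis) over the 23716 tested genes, as genes per bin of 0.1 on a log axis, with dotted lines at the fold-change threshold of 0.6 in either direction. Red lines mark hif1ab near the centre of the distribution, vegfaa at 0.46 on its right shoulder and egln3 at 4.08 in its far right tail.

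The replicates of each gene were close. In normoxia egln3 had a coefficient of variation of 8.55%, where counting alone gives 6.70%, and in hypoxia it had 1.41%, where counting gives 1.75%. The spread of egln3 in normoxia is thus near the limit set by its 202 to 232 counts. For hif1ab the coefficient of variation was 2.68% in normoxia and 3.14% in hypoxia, above the 0.815% and 0.868% of counting. For vegfaa it was 5.80% and 5.15%, against 3.53% and 3.23%. The pooled within-group SD of log2 CPM was 0.10, 0.04 and 0.08 for egln3, hif1ab and vegfaa. Among the 500 genes nearest to each in the average of both group means, its median was 0.07, 0.06 and 0.09. Of these genes 76.4%, 22.6% and 37.6% had a smaller spread than egln3, hif1ab and vegfaa. For egln3 that average lies between 2.93 CPM in normoxia and 49.4 CPM in hypoxia. Its 76.4% thus compares it with genes that match its level in neither group. The hypoxia libraries were unequally far from normoxia over all genes, with scores on the first principal component of 20.3, 38.6 and 53.1 in replicates 1 to 3 against -38.2 to -22.2 in normoxia. The 3 libraries differed in egln3 by only 48.7 to 50.1 CPM.

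Genes with the most similar pattern were sought by the root mean square difference, over the 7 libraries, in log2 CPM less the normoxia mean of the gene, among 20605 genes whose normalized count averaged at least 50. The nearest to egln3 were hbae5 (ENSDARG00000045142), an embryonic alpha-globin gene, at 0.373, and ankrd37 (ENSDARG00000056376), which encodes an ankyrin repeat protein, at 0.480. The median distance from egln3 was 2.66, so these 2 stand near it only in comparison with the rest. hif1ab had many near neighbours. For it 3816 genes lay within 0.1, led by UBE3C (ENSDARG00000035978), which encodes a ubiquitin ligase, at 0.0122 and SCAPER (ENSDARG00000023104) at 0.0147. For vegfaa 992 genes lay within 0.1, led by si:dkeyp-72h1.1 (ENSDARG00000095347) at 0.0304 and kctd1 (ENSDARG00000074056) at 0.0347.

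The other genes of the HIF machinery were then examined by role. Symbols in capitals are family names that the gene name table gives to zebrafish copies without telling the a and b copies apart, so each is printed with its identifier. Of 21 such genes besides egln3 and hif1ab, 9 (42.9%, against 24.6% of all tested genes) were higher in hypoxia at an adjusted p under 0.05 (edgeR). By the same measure 3 were lower, where 25.1% of all tested genes were. The median log2 fold change was 0.13, where that of all tested genes was -0.00438. The 5 DEGs among the 21 genes were the 4 other hydroxylases and vhl. All 5 were higher, where 3.07% of all tested genes were higher DEGs. The gene lists used here and below were chosen with earlier results of these data known, so their shares are not independent evidence.

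Each of the 4 other hydroxylase genes in the count table rose. The prolyl hydroxylase egln2 (ENSDARG00000062562) was at 9.69, 7.60, 8.60 and 9.12 CPM in normoxia and at 30.3, 29.9 and 27.6 CPM in hypoxia. The difference was 1.74 on the log2 scale (SE 0.08, edgeR adjusted p = 3.3e-07). The EGLN1 copy ENSDARG00000038996 rose from a normoxia mean of 2.90 ± 0.236 CPM (SD, n = 4) to a hypoxia mean of 8.59 ± 0.341 CPM (SD, n = 3; log2 fold change 1.56, SE 0.09, edgeR adjusted p = 1.0e-06). EGLN1 encodes the main oxygen-sensing hydroxylase of mammals. The other EGLN1 copy in the count table, ENSDARG00000004632, rose from 16.3 ± 0.747 to 40.1 ± 2.97 CPM (log2 fold change 1.30, SE 0.06, edgeR adjusted p = 4.4e-07). The gene hif1an (ENSDARG00000031915) encodes the asparagine hydroxylase known as factor inhibiting HIF, which blocks the activity of the alpha subunit. It was at 22.0 to 25.7 CPM in normoxia and at 66.2 to 67.1 CPM in hypoxia (log2 fold change 1.45, SE 0.05, edgeR adjusted p = 1.1e-07). In the 4 genes the hypoxia libraries lay above all normoxia libraries, a pattern found in 26.3% of all tested genes. Beside the 4.08 of egln3, their log2 fold changes of 1.30 to 1.74 were smaller, a difference that was not tested because egln3 was chosen with its change known.

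The other alpha subunit genes moved in both directions and by small amounts. The hif1aa gene (ENSDARG00000006181), the second HIF-1 alpha copy, rose from a normoxia mean of 10.1 ± 0.582 CPM (SD, n = 4) to a hypoxia mean of 14.1 ± 0.603 CPM (SD, n = 3; log2 fold change 0.48, SE 0.07, edgeR adjusted p = 0.00023). Both EPAS1 copies, which encode HIF-2 alpha, fell. The copy ENSDARG00000008697 was at 86.7 to 93.5 CPM in normoxia and at 69.2, 62.8 and 55.7 CPM in hypoxia (log2 fold change -0.53, SE 0.07, edgeR adjusted p = 0.00017). It passed the DEG threshold without hypoxia replicate 1, at -0.61, and with library size alone, at -0.63. The copy ENSDARG00000057671 went from 58.8 ± 3.27 to 48.4 ± 1.87 CPM (log2 fold change -0.28, SE 0.05, edgeR adjusted p = 0.0016). The alpha-like genes hif1al2 (ENSDARG00000044550) and hif1al (ENSDARG00000100826) had log2 fold changes of 0.51 (SE 0.10, edgeR adjusted p = 0.0018) and 0.15 (SE 0.04, edgeR adjusted p = 0.015). Without hypoxia replicate 3 hif1al2 was a DEG, at 0.61. The call of hif1al was lost with library size alone and with cyclic loess. Among the partners, arnt2 (ENSDARG00000103697), a beta subunit gene, rose by a log2 fold change of 0.27 (SE 0.04, edgeR adjusted p = 0.00061) and arnt (ENSDARG00000021855) had 0.18 and an edgeR adjusted p of 0.077. It passed as higher with cyclic loess (0.21, limma adjusted p = 0.0495) and without hypoxia replicate 2 (0.26, edgeR adjusted p = 0.030).

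In the ubiquitin ligase, 1 of 6 genes was higher at an adjusted p under 0.05 (edgeR), where 24.6% of all tested genes were. The ligase gene elob was not in the count table. The gene vhl (ENSDARG00000070617), which encodes the subunit that recognizes hydroxylated HIF alpha, was at 3.76 to 4.54 CPM in normoxia and at 9.86 to 11.1 CPM in hypoxia (log2 fold change 1.39, SE 0.08, edgeR adjusted p = 2.4e-06). By the RefSeq genes of GRCz12tu, which is not the assembly used for counting, vhl overlaps pfkfb4b. The PFKFB4 gene of the table (ENSDARG00000029075) had a log2 fold change of 0.17. It was far more abundant than vhl, with means of 96.0 CPM in normoxia and 107.9 CPM in hypoxia. The part this overlap had in the vhl counts was not tested. The genes of other ligase subunits, cul2 (ENSDARG00000013965), rbx1 (ENSDARG00000038030), eloca (ENSDARG00000045355) and ELOC (ENSDARG00000045359), had log2 fold changes between -0.10 and -0.04 and did not pass the test. With library size alone cul2 and ELOC passed it as lower, and with cyclic loess or without normoxia replicate 1 ELOC did. The vhl-like gene vhll (ENSDARG00000078613) had -0.48 (SE 0.26), and without hypoxia replicate 1 it was lower, at -0.89 (edgeR adjusted p = 0.0077). Of the 4 coactivator genes, the EP300 copy ENSDARG00000100666 fell by 0.16 on the log2 scale (edgeR adjusted p = 0.033), a call lost with the replicate block and when any library other than normoxia replicate 1 and hypoxia replicate 3 was left out. The other 3, at -0.01 to 0.13, did not pass, although the EP300 copy ENSDARG00000061108 passed as higher without normoxia replicate 2 or hypoxia replicate 1.

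**Figure D3:**
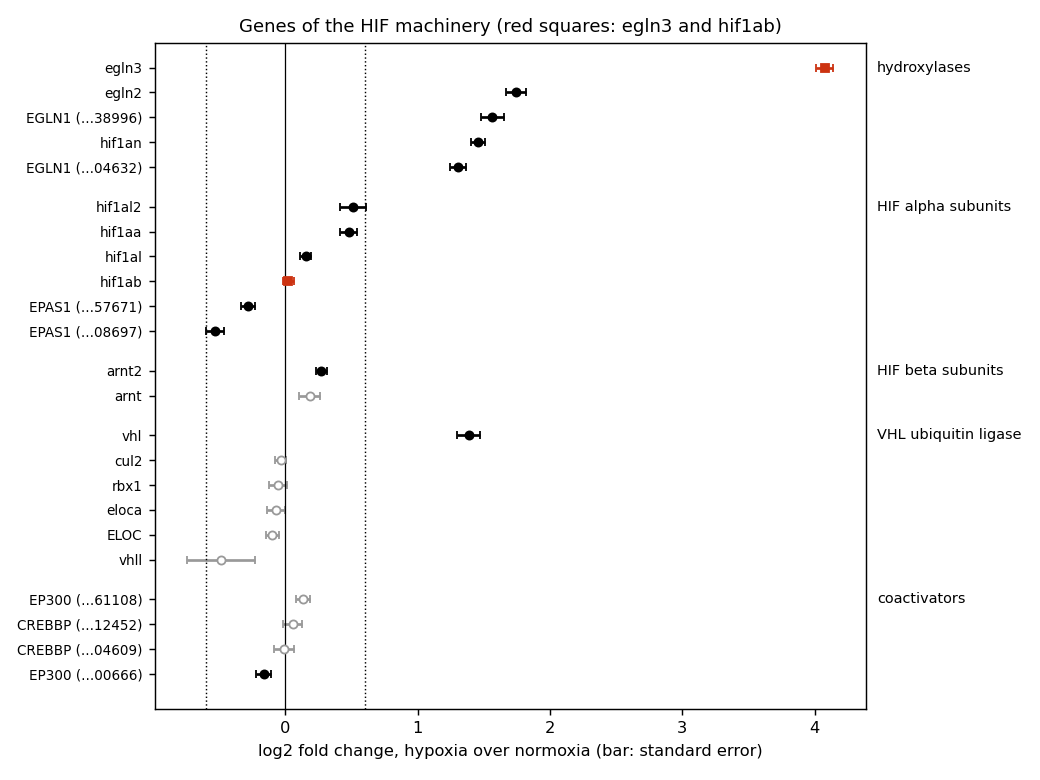
Log2 fold change (hypoxia over normoxia, x axis, bars for the standard error) of the HIF machinery genes by role. Filled symbols passed an adjusted p of 0.05, open symbols did not, red squares are egln3 and hif1ab as description, dotted lines mark 0.6 in either direction, and the last 5 digits of the identifier tell copies apart. All hydroxylases and vhl lie to the right of 1, while the other subunits lie between -0.53 and 0.51.

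VEGF ligands act on receptor tyrosine kinases of endothelial cells, with neuropilins as co-receptors. Of 14 such genes besides vegfaa, 5 (35.7%, against 24.6% of all tested genes) were higher in hypoxia and 9 did not pass an adjusted p of 0.05 (edgeR), with 2 higher under library size alone and 3 when any one hypoxia library was left out, and the median log2 fold change was 0.07. The second VEGFA copy (ENSDARG00000034700) was at 14.1, 14.0, 15.9 and 15.8 CPM in normoxia and at 28.5, 28.5 and 29.4 CPM in hypoxia. Its log2 fold change of 0.95 (SE 0.06, edgeR adjusted p = 2.8e-06) stands beside the 0.46 of vegfaa, and the difference between the copies was not tested. The ligand gene vegfba (ENSDARG00000090997) had 0.27 (SE 0.08, edgeR adjusted p = 0.017), a call lost with library size alone and without hypoxia replicate 1. At 0.140 ± 0.0433 CPM in normoxia, vegfbb (ENSDARG00000092480) was barely measured, and its call as a DEG (log2 fold change 0.89, SE 0.33, edgeR adjusted p = 0.044) was lost in DESeq2 (adjusted p = 0.12) and when any library other than normoxia replicate 3 was left out. The lymphatic ligands vegfc (ENSDARG00000069640) and vegfd (ENSDARG00000056624) had log2 fold changes of 0.00 and 0.07 with SEs of 0.11 and 0.12. PGF (ENSDARG00000076767), a placental growth factor gene, had -0.31, and without hypoxia replicate 1, which at 1.20 CPM was above the other hypoxia libraries at 0.71 and 0.63 CPM, it was lower, at -0.66 (edgeR adjusted p = 0.016).

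Among the receptors, flt1 (ENSDARG00000019371), which encodes VEGF receptor 1, rose from a normoxia mean of 6.61 ± 0.622 CPM (SD, n = 4) to a hypoxia mean of 8.78 ± 0.405 CPM (SD, n = 3; log2 fold change 0.41, SE 0.09, edgeR adjusted p = 0.0025). The signalling receptors kdrl (ENSDARG00000105215) and kdr (ENSDARG00000017321) had -0.04 and 0.19 with SEs of 0.06 and 0.10 and did not pass, and neither did flt4 (ENSDARG00000104453) at -0.20, although kdr passed as higher without normoxia replicate 1, and flt4 as lower with library size alone, with the replicate block and without normoxia replicate 4 or hypoxia replicate 1. One NRP2 copy (ENSDARG00000038446) had 0.14 (edgeR adjusted p = 0.032), a call lost with library size alone, with cyclic loess and without normoxia replicate 1, hypoxia replicate 2 or hypoxia replicate 3, and the remaining 3 neuropilin genes had 0.02 to 0.06 and did not pass. Of 9 endothelial markers 3 were higher and 2 lower at an adjusted p under 0.05 (edgeR), where 24.6% and 25.1% of all tested genes were, and none was at 0 in any library. The higher ones were CLDN5 (ENSDARG00000014059; log2 fold change 0.61), tek (0.48) and sox7 (0.27, a call lost with library size alone). The lower ones were fli1 (-0.29) and tie1 (-0.27). The summed level of the 9 markers was 151.8 to 160.3 CPM in normoxia and 155.7 to 164.4 CPM in hypoxia, so that the groups overlapped. As single markers moved in both directions, this sum does not show that each was level.

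**Figure D4:**
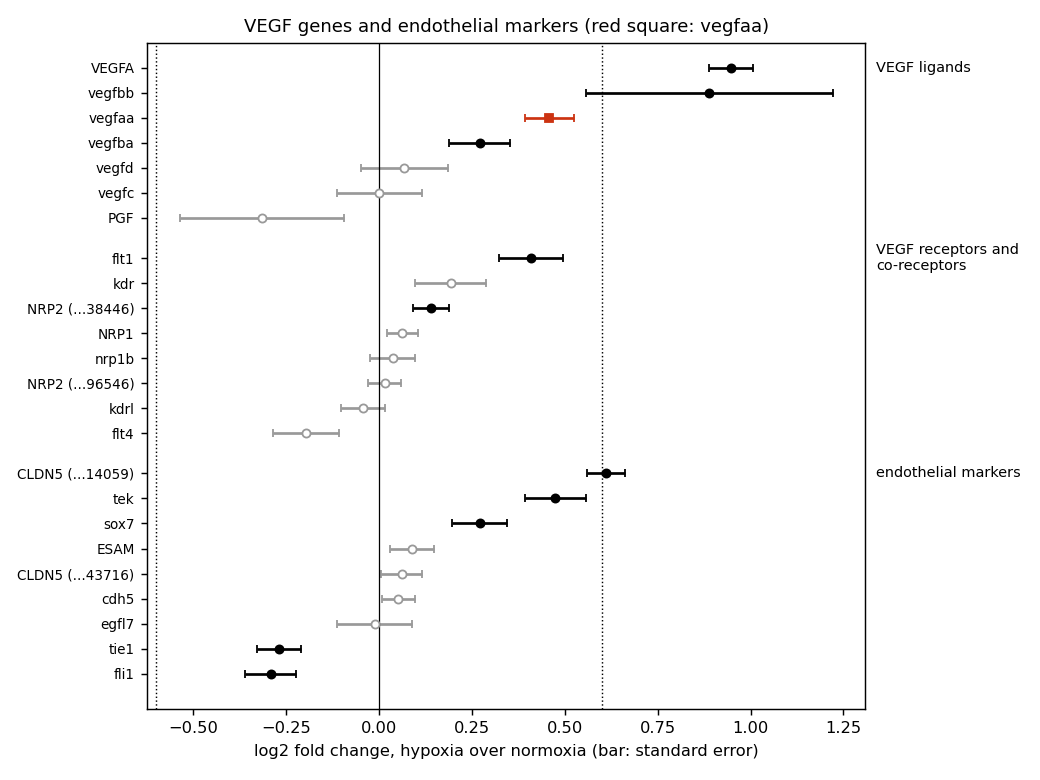
Log2 fold change (hypoxia over normoxia, x axis, bars for the standard error) of VEGF ligands, VEGF receptors and co-receptors, and endothelial markers. Filled symbols passed an adjusted p of 0.05, open symbols did not, and the red square is vegfaa as description. Both VEGFA copies lie to the right of 0.4, kdrl lies at -0.04 and kdr at 0.19, the last 2 as open symbols.

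Genes listed here as HIF targets were more often higher than lower. Of 37 such genes 27 (73.0%) were higher and 3 lower in hypoxia at an adjusted p under 0.05 (edgeR), where 24.6% and 25.1% of all tested genes were. DEGs numbered 18, all higher, and 3.07% of all tested genes were higher DEGs. The median log2 fold change was 0.57, beside -0.00438 for all tested genes. The list is not independent evidence of its direction, since some of its genes, such as stc2a and pfkfb3, were singled out by the study in these libraries. Whether each listed gene, such as kdm3b and the PDK2 copies, is a HIF target in zebrafish was not tested. The largest increase was that of ankrd37, from 2.56 to 2.93 CPM in normoxia to 26.8 to 27.7 CPM in hypoxia (log2 fold change 3.35, SE 0.06, edgeR adjusted p = 3.2e-10), and it stood next to that of egln3. P4HA1 (ENSDARG00000071082), a collagen prolyl hydroxylase gene, rose from 13.4 ± 2.42 to 70.2 ± 0.961 CPM (log2 fold change 2.39, SE 0.11, edgeR adjusted p = 3.3e-07), while p4ha1a (ENSDARG00000033537), the other copy, fell by 0.33 on the log2 scale (edgeR adjusted p = 0.0091).

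Of the other targets, pfkfb3 (ENSDARG00000001953), which encodes a regulator of glycolysis, rose by 1.76 on the log2 scale (SE 0.07, edgeR adjusted p = 2.2e-07), and ddit4 (ENSDARG00000037618), which encodes an inhibitor of mTOR signalling, had 1.44 (SE 0.06, edgeR adjusted p = 2.2e-07). IGFBP1 (ENSDARG00000099351) and igfbp1b (ENSDARG00000038666), whose proteins bind insulin-like growth factors, had 1.25 and 0.98 (edgeR adjusted p = 1.5e-05 and 0.0016). The erythropoietin gene epoa (ENSDARG00000055163) had 1.25 (SE 0.13, edgeR adjusted p = 6.7e-05). NDRG1 (ENSDARG00000010420), a stress-responsive gene, had 1.08, PDK2 (ENSDARG00000059054), whose kinase restrains pyruvate dehydrogenase, had 1.07, and SLC2A1 (ENSDARG00000001437), which encodes a glucose transporter, had 1.01 (edgeR adjusted p = 2.7e-06, 2.3e-05 and 5.8e-06). The other NDRG1 copy (ENSDARG00000032849), at a normoxia mean of 170.3 CPM against 25.0 CPM, had 0.11 and did not pass (edgeR adjusted p = 0.13). The other copies of PDK2 (ENSDARG00000020876) and SLC2A1 (ENSDARG00000007412) had 0.55 and 0.41 (edgeR adjusted p = 0.00025 and 0.00064), under the DEG threshold. The 3 genes that fell, p4ha1a, the carbonic anhydrase gene ca9 (ENSDARG00000102300; -0.47, edgeR adjusted p = 0.038) and the transferrin receptor gene tfr1a (ENSDARG00000101322; -0.57, edgeR adjusted p = 0.00076), are HIF targets in mammals. Targets that did not pass included pdk1 (ENSDARG00000013128) at 0.13 and both CXCR4 copies at -0.07 and -0.02.

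**Figure D5:**
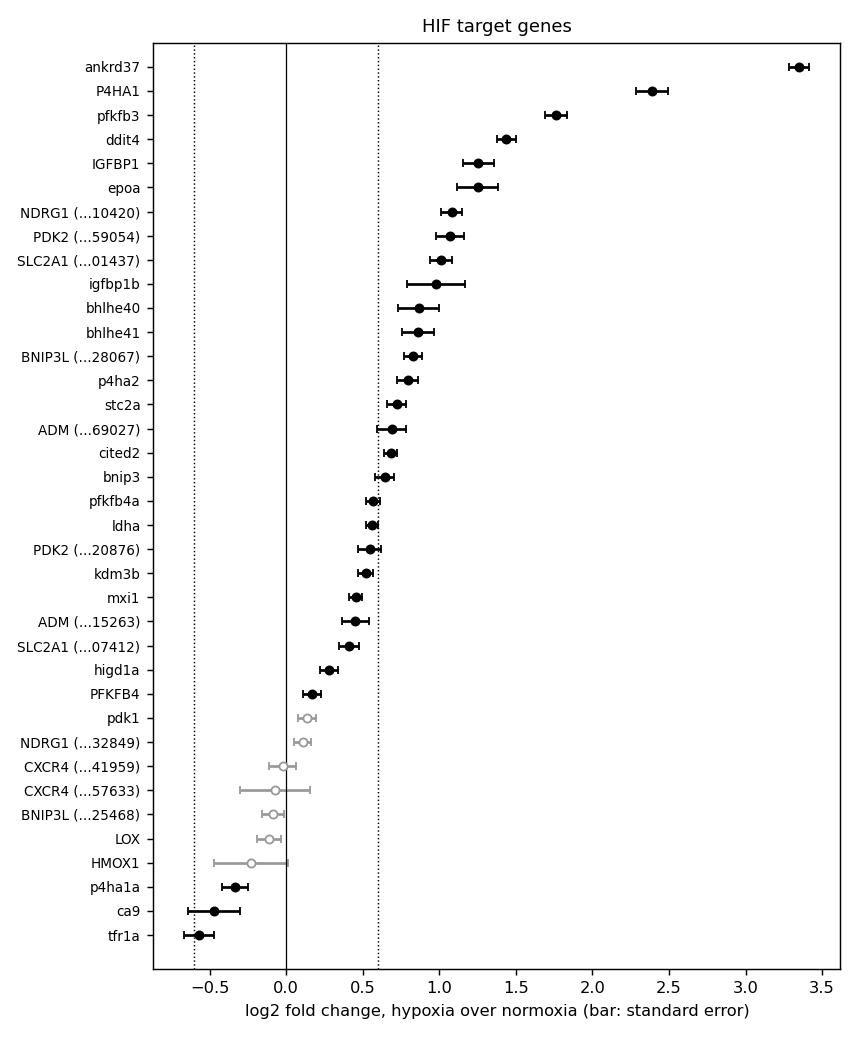
Log2 fold change (hypoxia over normoxia, x axis, bars for the standard error) of 37 genes listed as HIF targets, in order of size. Filled symbols passed an adjusted p of 0.05, open symbols did not, and dotted lines mark 0.6 in either direction. Most genes lie to the right of 0, from ankrd37 at 3.35 down to tfr1a at -0.57.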

How the data were processed

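Poly(A) RNA-seq was analysed in 4 normoxia and 3 hypoxia pools. The authors trimmed reads with Trimmomatic 0.39, aligned them to GRCz11 with STAR 2.7.10 and counted them per Ensembl gene with featureCounts 2.0.7, and deposited whole-number counts without normalization. The strand setting and the treatment of reads that map to several places are not given in the sources used here. In the RefSeq annotation of GRCz12tu, used for names and overlaps only, egln3, egln2 and vegfaa each overlap 1 long non-coding RNA gene, and arnt2 and stc2a each overlap 2. The genes hif1al2, vhl, vhll, kdr, epoa, vegfba, vegfc, nrp1b, kdm3b and p4ha2 also overlap other genes. The counts of all these genes are uncertain to that extent. Overlaps were not looked up for genes under family symbols in capitals, for marker genes or for genes outside the lists, and vegfbb gave no result.

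All genes were fitted together by the quasi-likelihood method of edgeR 4.0.16 (R 4.3.3) after filterByExpr and TMM scaling, and p-values were adjusted over all tested genes by Benjamini-Hochberg. CPM used TMM-scaled library sizes, and log2 CPM a prior count of 2. Fold changes are fitted values, and their standard error was derived from the F statistic. DESeq2 1.42.0 and limma 3.58.1 served as alternatives. Counts were also simulated for 23716 genes. The changed genes had a set log2 change of at least 1 in size and a mean count of at least 50. Every gene was given the spread of the trend across all genes, so genes more variable than the trend were not covered. By the DEG rule each of the 3 tools recovered 199 of 200 changed genes, with 0 false calls by edgeR and DESeq2 and 2 by limma after cyclic loess. In the measured data far more genes, 11790, passed the adjusted p in edgeR. The simulation was not designed to measure recovery of small changes or of changes in genes with few counts. It therefore gives no rate of recovery or of false calls for small changes called by the adjusted p alone, or for genes with few counts. The 199 of 200 cannot be carried over to such genes. Replicates differed by more than sampling noise (chi-square per degree of freedom of 7.04 to 20.9 in 9 pairs). Replicates are separate pools. The p-values set the group difference against the spread between these pools, which the fit estimates in part across all genes. Whether the pools came from separate spawnings or separate chamber runs is not given in the sources used here.

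The members and gene lists were chosen with earlier results of these data known. Of 99 list symbols 94 were matched to identifiers through the gene name table, by symbol or by family symbol with the final a or b removed, and 1 further target gene is not reported here. Genes named, alone or in a range, were the members and all other matched HIF machinery and VEGF genes of the count table. They also included the 10 largest changes among called targets and the 2 most similar genes per member. Both CREBBP copies, NRP1 (ENSDARG00000102153) and the NRP2 copy ENSDARG00000096546 were given only within a range. The matched identifiers of elob (ENSDARG00000097471) and of a further EGLN1 entry (ENSDARG00000105156) were not in the count table. The genes in the list of targets that fell or did not pass, the other copies of PDK2 and SLC2A1, and marker genes, were named after their values were seen. The alternatives were other scalings, count filters, thresholds and tests, a replicate block, and leaving out each library.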

Additional observations from a re-analysis of the deposited data

Results flagged for a closer look

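In 48 groups of normoxia values, those of the genes named from the fixed lists and of the 3 members, a library apart was sought. The measure was its gap to the nearest library over the range of the group, whatever the size of the gap. By it 1 library stood apart from the other 3 in 4 genes, where chance gives about 1 in 20 groups, or 2.40. None of these was a member. In hif1al (ENSDARG00000100826), normoxia replicate 3 had 221.2 CPM and the others 239.8 to 242.5 CPM. In nrp1b (ENSDARG00000027290), normoxia replicate 3 had 11.4 CPM and the others 11.7 to 11.8 CPM, a small gap beside others that lay close together. In EP300 (ENSDARG00000100666), normoxia replicate 1 had 40.2 CPM and the others 45.6 to 46.7 CPM. In NRP2 (ENSDARG00000038446), normoxia replicate 1 had 76.7 CPM and the others 83.2 to 83.6 CPM. Groups of 3 were not examined in this way.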

How the results depend on the processing

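The log2 fold change of egln3 stayed between 3.98 and 4.09 in the fits to all 7 libraries and with the replicate block, and that of vegfaa between 0.36 and 0.48, and without each library in turn they were 4.02 to 4.12 and 0.42 to 0.50. With library size only, vegfaa had 0.36 and hif1ab -0.072, 427 DEGs were higher and 2484 lower, where the main test gave 729 and 1766, so that higher genes made up 14.7% rather than 29.2%, with 1 lower DEG each in the HIF machinery and among the targets, 1 higher DEG among the VEGF genes, 5 HIF machinery genes lower at the adjusted p, and 2 VEGF genes higher and 1 lower. With cyclic loess hif1ab had -0.062, and the cause was not tested. The VEGF genes held 1 higher DEG in place of 2 also with DESeq2, with no count filter, with at least 10 counts in every library and with the threshold inside the test, and 0 with a log2 threshold of 1 in edgeR, where 5 had an unadjusted p under 0.05, and 0 in DESeq2 at that threshold, where 5 did too. The threshold inside the test left 133 higher and 167 lower DEGs (44.3% higher) and 10 targets. A log2 threshold of 1 left 172 and 513, and 9 targets. Both ask for a larger change.

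When replicates 1 to 3 were fitted with a replicate block, egln3, hif1ab and vegfaa had 4.07, 0.01 and 0.48, the VEGF genes held 1 higher DEG, and 1 was lower at the adjusted p. Deviations of same-numbered libraries correlated at 0.190, 0.0520 and 0.0211, so that the number was not taken to pair them.

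Across the 7 fits that left out one library, there were 576 to 913 higher and 1271 to 2266 lower DEGs, 5 to 6 higher and 0 to 2 lower DEGs in the HIF machinery, 1 to 2 and 0 to 1 among VEGF genes, and 17 to 18 and 0 to 2 among targets. At the adjusted p, 9 to 10 HIF machinery genes were higher and 2 to 4 lower, 3 to 5 VEGF genes higher and 0 to 2 lower, and 26 to 27 targets higher and 2 to 3 lower. The 2 lower DEGs of the HIF machinery and of the targets, and 2 lower VEGF genes, came without hypoxia replicate 1, 1 lower VEGF gene came without normoxia replicate 4, and 3 VEGF genes were higher when any one of the hypoxia replicates 1, 2 and 3 was left out. Of 719 values of 45 named genes under the alternatives, 699 kept their DEG call, 15 lost it, 5 gained one and none changed sign with a call. By the adjusted p alone, 589 of 629 values kept their side of 0.05, 25 lost it (5 genes) and 15 gained it (8 genes). Depth limits vegfbb, and levels per length were not run.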
